A study of Homo sapiens with 6 samples.

Results

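The CDC25 phosphatases and the kinases that oppose or restrain them were followed in OE-19 cells, a line of adenocarcinoma of the esophagogastric junction (AEG), with or without knockdown (KD) of IGF2BP3. The 7 genes *CDC25A*, *CDC25B*, *CDC25C*, *WEE1*, *PKMYT1*, *CHEK1* and *CHEK2* were chosen by name for their function, with earlier results of these data known. The paper had singled out *CDC25A*, *WEE1* and *CHEK2* among the genes lowered in this RNA-seq, so a count of lower genes among the 7 is not independent of these data. Each of the 7 has 1 entry among the 60480 gene identifiers of the deposited count table. Control cells (3 libraries) carried a control shRNA by their sample titles, while their columns in the deposited count table are named Puro. IGF2BP3 KD cells (3 libraries) carried an shRNA against *IGF2BP3*, which encodes an RNA-binding protein that reads N6-methyladenosine (m6A) on mRNA. All were grown in RPMI1640 with 10% fetal bovine serum. Neither the labels nor the paper's text says whether the 3 IGF2BP3 KD libraries share a hairpin or come from separate infections, so the spread between libraries, and each p-value, may be technical in part.

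A cyclin-dependent kinase (CDK) bound to its cyclin is held inactive by phosphate groups that WEE1 and PKMYT1 place near its ATP site. CDC25A, CDC25B and CDC25C remove these groups, so the balance of the phosphatases and kinases sets when a cell enters S phase and mitosis. After DNA damage or stalled replication, ATR activates CHEK1 and ATM activates CHEK2, and both checkpoint kinases phosphorylate CDC25 proteins, which leads to the destruction of CDC25A and the retention of CDC25C by 14-3-3 proteins.

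Total counts per library ranged from 53424071 to 69989087, and mitochondrial genes took 8.67% to 9.06% of them. *IGF2BP3* (ENSG00000136231) had 7416, 7363 and 6532 counts in control and 777, 792 and 794 counts in IGF2BP3 KD replicates, and was lowered to 12.2% of its control level (log2 fold change -3.03 ± 0.06, standard error). Of its exonic bases, 17.8% are shared with *MALSU1* on the opposite strand, which was lower too (-0.67 ± 0.07). The epithelial markers *EPCAM*, *CDH1*, *KRT8*, *KRT18*, *KRT19* and *ERBB2* summed to 18159 to 19144 CPM (counts scaled to the size of the library) in control and 19831 to 20289 CPM in IGF2BP3 KD cells. *ERBB2* made up most of the sum and was called higher (0.13 ± 0.03), as was *EPCAM* (0.15 ± 0.03), whereas *KRT8* (-0.06 ± 0.02) and *KRT18* (-0.07 ± 0.02) were called lower, and the 5 markers other than *ERBB2* summed to 5681 to 5749 CPM in control and 5597 to 5713 CPM in IGF2BP3 KD cells. The part of these shifts in the results was not tested. The 8 markers of other cell types summed to 21.6 to 24.4 CPM in control and 29.8 to 34.7 CPM in IGF2BP3 KD cells. Of these, *CD3E* and *COL1A2* were at 0 throughout and the 7 markers other than *COL1A1* summed to at most 1.19 CPM per library, whereas *COL1A1* was higher in IGF2BP3 KD cells (21.7 ± 1.65 CPM in control and 30.8 ± 2.32 CPM in IGF2BP3 KD cells, SD, n = 3). The part of *COL1A1*-expressing cells in the results was not tested.

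Of the 7 genes, all of which passed the filter on low counts, 5 were lower in IGF2BP3 KD cells: *WEE1*, *CHEK2*, *CDC25A*, *CHEK1* and *CDC25B*, in the order of their fitted fall. The order of *CHEK2* and *CDC25A*, which lay within each other's standard error, turned without control replicate 2 or IGF2BP3 KD replicate 1. *PKMYT1* and *CDC25C* did not pass the test. Across all 19778 genes tested with edgeR's quasi-likelihood test and a Benjamini-Hochberg adjusted p under 0.05, 10.6% were lower and 9.87% were higher, and 14.3% of the 13991 coding genes tested were lower. None of the 7 was higher, in that test, at an unadjusted p under 0.05 or with DESeq2. The 3 IGF2BP3 KD values all lay below the 3 control values in the same 5 genes, a pattern that 17.8% of all genes tested showed. Log2 fold changes are given as IGF2BP3 KD over control with the standard error, and levels as CPM after TMM scaling with the SD of the 3 libraries of a group. These are values of bulk RNA, in which fewer cells in a cell cycle phase and less RNA per cell cannot be told apart.

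**Figure D1:**
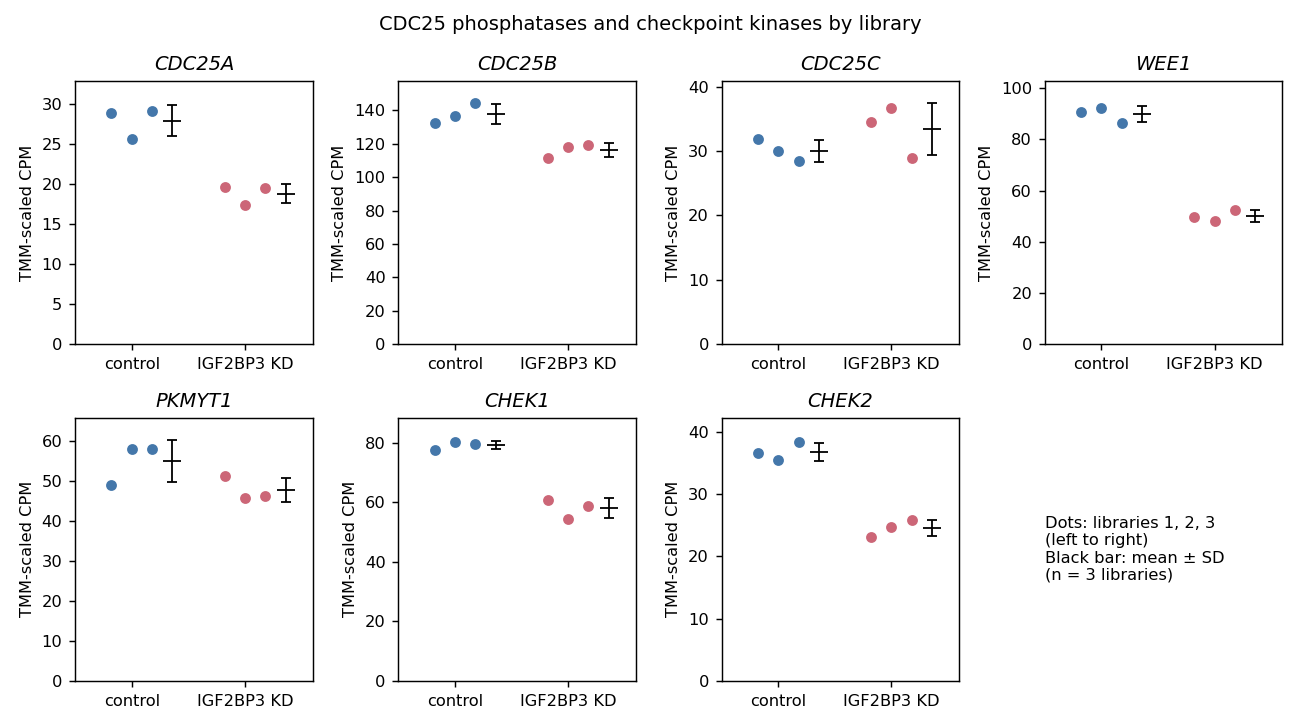
TMM-scaled CPM of each gene (vertical axis, from 0) in the 3 control libraries (blue) and the 3 IGF2BP3 KD libraries (red), with the mean and SD as black bars. The groups do not overlap for *CDC25A*, *CDC25B*, *WEE1*, *CHEK1* and *CHEK2*, whereas for *CDC25C* and *PKMYT1* they do.

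*CDC25A* (ENSG00000164045), the phosphatase best known for the G1-S transition, is on chromosome 3 of hg38, 48157146 to 48188417, minus strand, and shares no exon with another gene. Its level was 28.9, 25.7 and 29.1 CPM in control replicates 1, 2 and 3, and 19.6, 17.4 and 19.5 CPM in IGF2BP3 KD replicates 1, 2 and 3. The highest IGF2BP3 KD value was thus below the lowest control value, and replicate 2 was the lowest library of both groups. The level fell from 27.9 ± 1.93 to 18.8 ± 1.21 CPM, to 67.5% of control (log2 fold change -0.57 ± 0.08, 95% interval -0.73 to -0.40, adjusted p = 3.1e-04 from edgeR). By p, *CDC25A* ranked 477 among the genes with a lower mean. With each library left out in turn its value lay between -0.63 and -0.51.

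*CDC25B* (ENSG00000101224), which acts on CDK1 with cyclin B at the onset of mitosis, is on chromosome 20, 3786772 to 3806121, plus strand, and also shares no exon. Control replicates 1 to 3 had 132, 137 and 144 CPM, and IGF2BP3 KD replicates 1 to 3 had 111, 118 and 119 CPM. The groups were separate. The mean was 138 ± 6.02 CPM in control and 116 ± 4.34 CPM in IGF2BP3 KD cells, which is 84.5% of control (log2 fold change -0.24 ± 0.04, 95% interval -0.34 to -0.15, adjusted p = 0.0018 from edgeR).

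*CDC25C* (ENSG00000158402), the phosphatase that 14-3-3 proteins hold in the cytoplasm, is on chromosome 5, 138285269 to 138338355, minus strand. It had 31.8, 30.0 and 28.4 CPM in control replicates and 34.6, 36.7 and 29.0 CPM in IGF2BP3 KD replicates. IGF2BP3 KD replicates 1 and 2 were above all control values and replicate 3 was among them. The log2 fold change of 0.15 ± 0.09 did not pass the test (adjusted p = 0.27 from edgeR), and its 95% interval, -0.04 to 0.34, lies above the whole interval of *CDC25A*. Without IGF2BP3 KD replicate 3 the log2 fold change was 0.24 (adjusted p = 0.053 from edgeR), and without replicate 2 it was 0.08. *CDC25C* shares 8.8% of its exonic bases with *FAM53C* on the opposite strand, which had a log2 fold change of -0.11 ± 0.07.

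Promoters are shown of *CDC25A*, which was called lower, of *CDC25C*, which was not, and of *CHEK2*, to compare the words that they hold. RefSeq windows on GRCh38.p14, from 250 bases before to 50 bases after a start site, were found for 5 of the 7 genes (13 windows, since some genes have several start sites). *WEE1* and *PKMYT1* had no entry. Each window was searched on both strands for TTTCCCGC and TTTGGCGC, which are typical of E2F sites, for CCAAT, and for TTTGAA, the core of the cell cycle genes homology region (CHR), and none of these words contains another. In the sequences, written 5′ to 3′ on the strand of the gene, capitals mark these words or their reverse complement. The window of *CDC25A* is chr3:48188368-48188667 (minus strand), that of *CDC25C* shown here is chr5:138331755-138332054 (minus strand), and that of *CHEK2*, a gene that fell by about as much as *CDC25A*, is chr22:28741771-28742070 (minus strand).
CDC25A: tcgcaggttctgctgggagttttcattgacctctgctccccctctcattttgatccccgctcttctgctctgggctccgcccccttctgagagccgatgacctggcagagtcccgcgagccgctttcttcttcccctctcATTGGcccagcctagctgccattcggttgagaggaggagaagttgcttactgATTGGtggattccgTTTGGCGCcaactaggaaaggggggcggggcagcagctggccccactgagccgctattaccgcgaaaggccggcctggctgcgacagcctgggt
CDC25C: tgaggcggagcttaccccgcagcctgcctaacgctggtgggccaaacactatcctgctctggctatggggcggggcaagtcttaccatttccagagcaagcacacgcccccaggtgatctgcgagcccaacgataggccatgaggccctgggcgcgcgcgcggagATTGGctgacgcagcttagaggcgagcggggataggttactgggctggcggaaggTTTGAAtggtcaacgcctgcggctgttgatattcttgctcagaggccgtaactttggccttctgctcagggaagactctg
CHEK2: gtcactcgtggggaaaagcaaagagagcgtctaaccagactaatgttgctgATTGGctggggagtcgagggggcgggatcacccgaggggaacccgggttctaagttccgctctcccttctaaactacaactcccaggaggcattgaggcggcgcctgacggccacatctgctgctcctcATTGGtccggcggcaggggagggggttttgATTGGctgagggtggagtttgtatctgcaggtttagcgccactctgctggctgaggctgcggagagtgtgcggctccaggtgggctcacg

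The *CDC25A* window alone held an E2F-type word, TTTGGCGC, which starts 44 bases before the start site. Of 35116 windows in the RefSeq table, 0.652% hold TTTGGCGC and 1.63% hold TTTCCCGC. The *CDC25C* windows alone held TTTGAA, which 15.2% of all windows hold, in 2 overlapping windows of its 4 start sites. CCAAT was in 9 of the 13 windows, against 34.6% of all windows, and some of the 13 overlap each other. These matches describe the letters, and no binding was measured here.

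*WEE1* (ENSG00000166483), the nuclear kinase that phosphorylates CDK1 and CDK2, is on chromosome 11, 9573670 to 9593457, plus strand. Its level was 90.7, 92.4 and 86.5 CPM in control replicates and 49.7, 48.2 and 52.5 CPM in IGF2BP3 KD replicates. The gap between the groups was wide compared with the spread inside each, and *WEE1* had the deepest fall of the 7 genes. The mean went from 89.9 ± 3.06 to 50.1 ± 2.2 CPM, to 55.8% of control (log2 fold change -0.84 ± 0.05, 95% interval -0.95 to -0.74, adjusted p = 7.7e-07 from edgeR). By p it ranked 46 among the genes with a lower mean. It shares 104 exonic bases, 1.12%, with a small nucleolar RNA gene on its strand that had 8 to 27 counts per library.

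*PKMYT1* (ENSG00000127564), the membrane-bound kinase that phosphorylates CDK1, is on chromosome 16, 2968024 to 2980479, minus strand. It had 49.0, 58.1 and 58.1 CPM in control replicates and 51.2, 45.9 and 46.4 CPM in IGF2BP3 KD replicates. Control replicate 1 lay below IGF2BP3 KD replicate 1, so the groups overlapped. The log2 fold change of -0.20 ± 0.07 did not pass the test (95% interval -0.36 to -0.04, adjusted p = 0.077 from edgeR), while without control replicate 1 it was -0.28 with an adjusted p of 0.010 from edgeR, and DESeq2 called it lower (adjusted p = 0.017). *PKMYT1* shares 24.7% of its exonic bases with *PAQR4* on the opposite strand, which was lower (log2 fold change -0.32 ± 0.06), and 7.18% with *KREMEN2*, at 0.10 ± 0.13. The kit was directional but the strand setting of the counting is not given in the sources used here, so reads from these bases cannot be assigned.

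*CHEK1* (ENSG00000149554), the kinase of the replication checkpoint, is on chromosome 11, 125625163 to 125676255, plus strand. Its level was 77.7, 80.4 and 79.4 CPM in control replicates and 60.9, 54.3 and 58.8 CPM in IGF2BP3 KD replicates. The control values were close to each other and all above the IGF2BP3 KD values. The mean fell from 79.2 ± 1.38 to 58.0 ± 3.39 CPM, to 73.3% of control (log2 fold change -0.45 ± 0.05, 95% interval -0.56 to -0.34, adjusted p = 9.1e-05 from edgeR). It shares 13.4% of its exonic bases with a long non-coding RNA gene on the opposite strand that has no entry in the count table, and 53 bases with *STT3A*, which had a log2 fold change of 0.03 ± 0.03.

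*CHEK2* (ENSG00000183765), the kinase that ATM activates at double-strand breaks, is on chromosome 22, 28687743 to 28742422, minus strand. It had 36.6, 35.5 and 38.4 CPM in control replicates and 23.2, 24.7 and 25.8 CPM in IGF2BP3 KD replicates. The groups were well apart, with a spread of 1.47 CPM (SD) in control and 1.33 CPM in IGF2BP3 KD cells. The level in IGF2BP3 KD cells was 66.6% of control (log2 fold change -0.58 ± 0.06, 95% interval -0.72 to -0.45, adjusted p = 6.8e-05 from edgeR). *HSCB*, on the opposite strand, shares 6.52% of its exonic bases and had a log2 fold change of -0.05 ± 0.12.

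**Figure D2:**
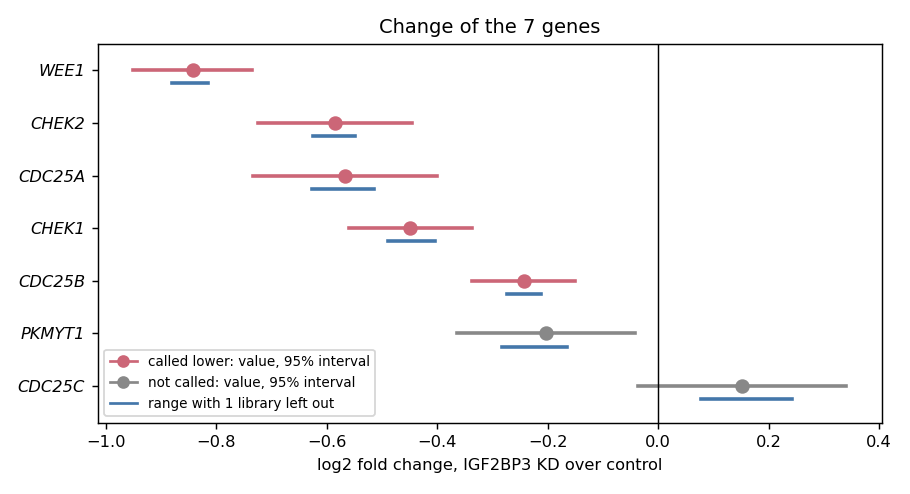
Log2 fold change (horizontal axis) of each gene with its 95% interval from edgeR, red where the gene was called lower and grey where it was not, and in blue the range of values with each of the 6 libraries left out. The blue ranges of the 5 called genes all lie below 0, and that of *CDC25C* runs from 0.08 to 0.24.

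Since m6A readers act on transcripts, words in the 3′ UTR were examined for the canonical transcripts of GENCODE v44. UGGAC, written TGGAC in DNA letters, is the word that the study names for IGF2BP3 binding. *CDC25A* (ENST00000302506, 3′ UTR of 1799 bases) held it 3 times, *CDC25B* once in 1154 bases and *CHEK1* once in 1827 bases. *WEE1*, with 1383 bases, *CDC25C* with 423, *CHEK2* with 154 and *PKMYT1* with 145 did not hold it in the 3′ UTR, although each held it 2 or 3 times elsewhere in the transcript. Among tested coding genes with a 3′ UTR of 1000 to 2000 bases, 69.2% of 3063 held it and 15.3% held it 3 times or more. The 5 called genes thus included 3 with the word in the 3′ UTR and 2 without it, and the matches say nothing of m6A or binding, which were not analysed here. The m6A sites that the paper reports in the untranslated region of *CDC25A* lie closer together than the UGGAC words found there. These words are therefore not that set of sites. The UGGAC sites are shown with 11 bases on each side on the strand of the transcript, with the word in capitals. Those of *CDC25A* are chr3:48158214-48158240, chr3:48157845-48157871 and chr3:48157776-48157802 (minus strand), that of *CDC25B* is chr20:3805919-3805945 (plus strand), and that of *CHEK1* is chr11:125655739-125655765 (plus strand), all on hg38.
CDC25A, base 2761 of the transcript: ggtgagagcgtTGGACccaggcttggc
CDC25A, base 3130: tcagtgttggaTGGACcacccaagggt
CDC25A, base 3199: gggtgctggcaTGGACatgactggata
CDC25B, base 2934: gcctatttgtgTGGACaaaaatattta
CHEK1, base 2731: cttgtgactttTGGACagtagatttat

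Of the other words searched, which were chosen with earlier results of these data known, ATTACTA was in the 3′ UTR of *CDC25A* and of *WEE1* and in that of none of the other 5 genes. It is in 7.25% of the 3′ UTRs of 1000 to 2000 bases, a class for which those of *CDC25C*, *CHEK2* and *PKMYT1* are too short. GATTACT was in none of the 3′ UTRs of the 7 genes. Elsewhere in the transcript, *CDC25C*, which was not called, held ATTACTA 2 times, and *CDC25B* and *CHEK2* held GATTACT 1 time each. The ATTACTA sites in the 3′ UTRs are on hg38 at chr3:48157210-48157238 (minus strand) and chr11:9588982-9589010 (plus strand).
CDC25A, base 3763: gcttagctagcATTACTAaccaactgttg
WEE1, base 2596: ctaaaagactcATTACTActcagccttca

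Levels of different genes were compared per kilobase of annotated exon. In control cells *CDC25B* stood highest at 35.3 ± 1.54 CPM per kilobase, followed by *CHEK1* at 14.1 ± 0.246, *PKMYT1* at 11.1 ± 1.05, *WEE1* at 9.71 ± 0.331, *CDC25C* at 9.03 ± 0.512, *CHEK2* at 8.20 ± 0.327 and *CDC25A* at 6.73 ± 0.466 (SD, n = 3). *CDC25B*, *CHEK1* and *CDC25A* stood apart from their neighbours in this order, while each pair of neighbours from *PKMYT1* to *CHEK2* overlapped. In IGF2BP3 KD cells *WEE1* had moved from the place 4 to 6, at 5.42 ± 0.238, beside *CHEK2* at 5.46 ± 0.296. *CDC25C*, at 10.0 ± 1.2, overlapped *CHEK1* and *PKMYT1*, and *CDC25A* was again lowest at 4.54 ± 0.292. The places in between depend on the length used. With the length of the canonical transcript, chosen after the data were seen, *WEE1* moved from the place 3 to 5 and *CDC25C* from 6 to 3. *CDC25B* stayed first and *CDC25A* last. *CHEK1*, at place 2 in both groups with all exons, was at place 5 in control and 4 in IGF2BP3 KD cells with that length.

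**Figure D3:**
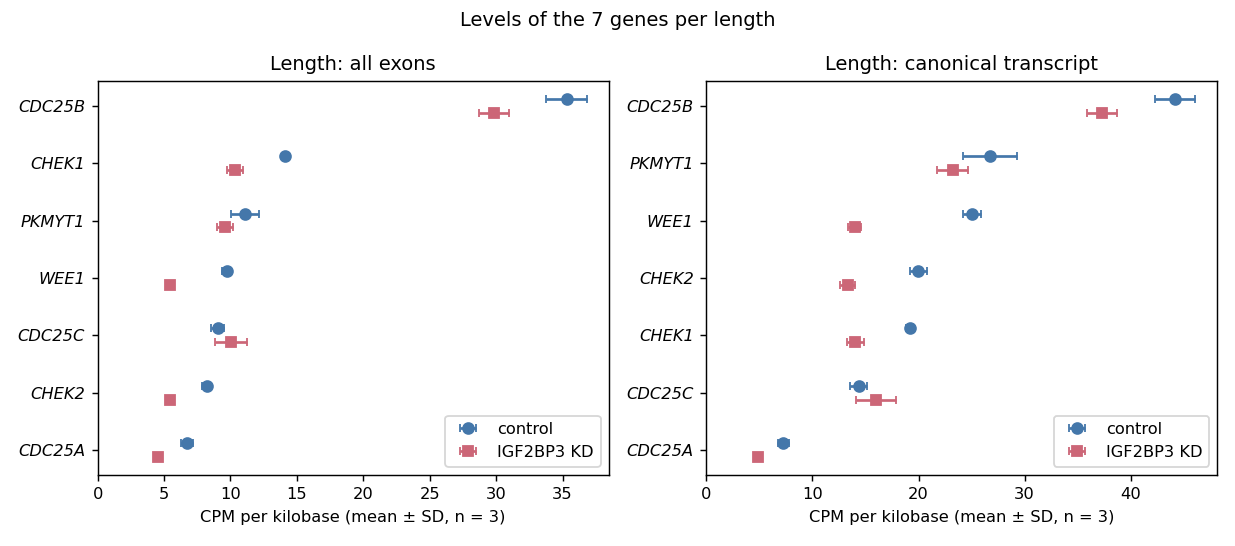
Mean level per kilobase (horizontal axis, from 0) with the SD over 3 libraries, in control (blue circles) and IGF2BP3 KD cells (red squares), with the length of all annotated exons (left) or of the canonical transcript (right). *CDC25B* is highest and *CDC25A* lowest in both groups and with both lengths.

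Ratios within a library, which do not depend on how libraries are scaled, were then compared for 4 pairs. They use the length of all annotated exons. The size of each ratio depends on that choice, so it does not show which side of a pair is more abundant. With the length of the canonical transcript, the mean of *CHEK1* lay below that of *CHEK2* in control and above it in IGF2BP3 KD cells. The ratio of the summed phosphatases (*CDC25A*, *CDC25B* and *CDC25C*) to the summed inhibitory kinases (*WEE1* and *PKMYT1*), per length, was 2.57, 2.32 and 2.50 in control libraries 1 to 3 and 2.79, 3.16 and 2.93 in IGF2BP3 KD libraries 1 to 3. Every IGF2BP3 KD library was above every control library, with a mean of 2.96 ± 0.187 against 2.46 ± 0.127 (SD, n = 3). The ratio of *WEE1* to *PKMYT1* was 0.995, 0.855 and 0.801 in the control and 0.521, 0.565 and 0.608 in the IGF2BP3 KD libraries. The ratio of *CDC25A* to *CDC25B* was 0.206, 0.177 and 0.190 in the control and 0.166, 0.139 and 0.153 in the IGF2BP3 KD libraries. In both of these ratios the IGF2BP3 KD libraries lay below the control libraries. For *CHEK1* to *CHEK2*, at 1.70, 1.82 and 1.66 in the control and 2.11, 1.76 and 1.83 in the IGF2BP3 KD libraries, the groups overlapped. The differences on the log2 scale were 0.27, -0.64, -0.32 and 0.14 in the order given here of phosphatases to kinases, *WEE1* to *PKMYT1*, *CDC25A* to *CDC25B* and *CHEK1* to *CHEK2*. Two-sided exact permutation tests gave p = 0.10 for the first 3, the smallest p that 3 against 3 libraries can give, and p = 0.20 for the last (0.13 and 0.20 after Benjamini-Hochberg adjustment over the 4 ratios). This test cannot reach 0.05 with 3 against 3 libraries, so the ratios are given as values. Without IGF2BP3 KD replicate 1 the difference for *CHEK1* to *CHEK2* was 0.06.

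**Figure D4:**
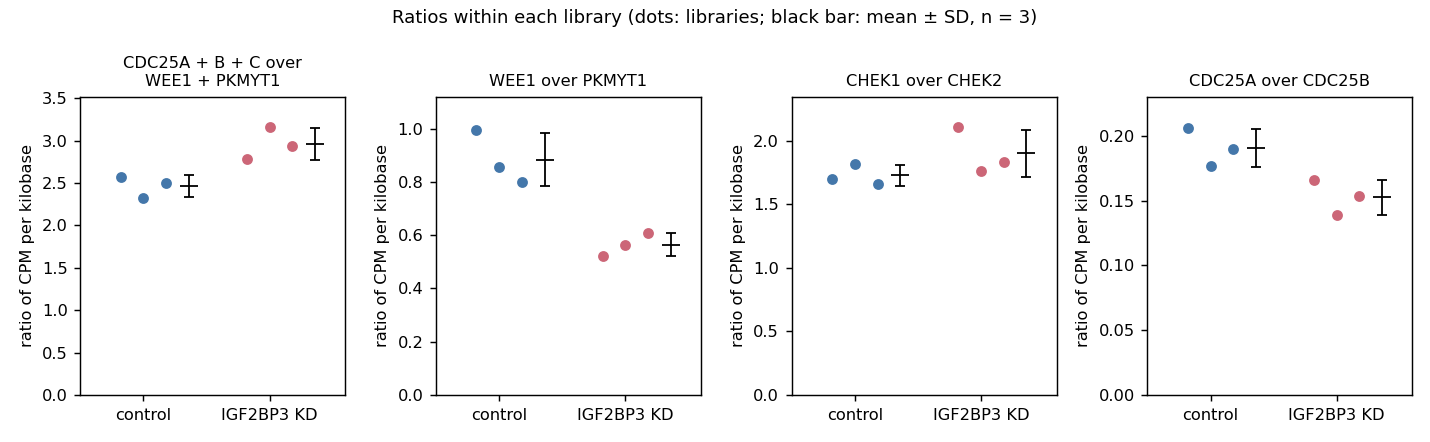
Ratio of levels per kilobase within each library (vertical axes, from 0), for the 3 control (blue) and 3 IGF2BP3 KD libraries (red), with the mean and SD as black bars. The groups are separate in the panels of phosphatases to kinases, *WEE1* to *PKMYT1* and *CDC25A* to *CDC25B*, and overlap for *CHEK1* to *CHEK2*.

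Among the phosphatases themselves, *CDC25A* made up 13.2% ± 0.777 of the summed level per length in control and 10.2% ± 0.877 in IGF2BP3 KD cells (SD, n = 3). The share of *CDC25C* was 17.7% ± 1.36 in control and 22.6% ± 2.45 in IGF2BP3 KD cells. *CDC25B* made up 69.1% ± 1.68 and 67.2% ± 2.15, and the groups overlapped. The 3 IGF2BP3 KD libraries lay below all control libraries for *CDC25A*, between 9.23% and 10.8%, and above them for *CDC25C*, between 19.8% and 24.2%. The size of each share also depends on the lengths used. Since shares are parts of a whole, that of *CDC25C* rises when the other phosphatases fall. The level of *CDC25C* itself did not pass the test.

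The CDKs on which the phosphatases and inhibitory kinases act formed a list of 7 genes with the cyclins of S phase and mitosis. Of the 7, 4 were lower, against 10.6% of all genes tested. Of the 7, 0 were higher (0 also with DESeq2 and at an unadjusted p under 0.05). Their median log2 fold change was -0.20, against 0.01 over all genes tested. *CDK2* was lower at -0.20 ± 0.05, and *CDK1* had -0.10 ± 0.05 and did not pass, both picked with their values known. The cyclins E, partners of CDK2 at the G1-S transition, fell most. *CCNE2* went from 43.1 ± 1.83 to 22.6 ± 0.826 CPM, and *CCNE1* from 28.3 ± 0.657 to 18.4 ± 0.753 CPM (log2 fold change -0.63 ± 0.06). *CCNB1*, the mitotic cyclin, was lower at -0.30 ± 0.06, and *CCNA2*, the cyclin of S phase and G2, had 0.02 ± 0.03 and did not pass (225 ± 5.45 and 228 ± 3.44 CPM).

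Upstream of *CHEK1*, 9 of 15 genes of the ATR arm were lower, against 10.6% of all genes tested, with a median of -0.22. Of the 15, 0 were higher (0 also with DESeq2, and 1 at an unadjusted p under 0.05). *CLSPN*, the adaptor through which ATR activates CHEK1, went from 51.9 ± 1.33 to 30.8 ± 1.99 CPM (-0.75 ± 0.06). *TIPIN* and *TIMELESS*, which form the fork protection complex, were lower at -0.70 ± 0.08 and -0.37 ± 0.04. *RAD9A*, a subunit of the clamp loaded at stalled forks, had -0.06 ± 0.08 and did not pass. *ATR* itself was among the lower genes at -0.26 ± 0.05, named here after its value was seen.

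In the ATM arm, 0 of 10 genes were higher (0 also with DESeq2 and at an unadjusted p under 0.05), with a median of -0.12. Not all of the 10 act upstream of *CHEK2*. Of the 10, 3 were lower, against 10.6% of all genes tested. These were *MDC1*, the scaffold that binds phosphorylated H2AX (-0.55 ± 0.07), *RNF168*, a ubiquitin ligase at breaks (-0.37 ± 0.06), and *BRCA1*, a repair factor (-0.19 ± 0.05). *BRCA1* was no longer called without control replicate 1, control replicate 3, IGF2BP3 KD replicate 2 or IGF2BP3 KD replicate 3, with an adjusted p from edgeR of up to 0.094. *MRE11*, a nuclease that senses breaks with RAD50 and NBN, had -0.16 ± 0.05 and did not pass (adjusted p = 0.054 from edgeR), but passed with DESeq2 (adjusted p = 0.0099), with at least 10 counts in every library (0.026), with a replicate block (0.026) and without control replicate 3 (0.037). Without control replicate 1 its log2 fold change was -0.10. *ATM* itself had -0.05 ± 0.04 and did not pass, also named here after its value was seen. The difference between the ATR and ATM arms was not tested.

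Of 16 genes of CDC25 turnover and of the 14-3-3 family, 6 were lower and 2 were higher, with a median of -0.03. Over all genes tested, 10.6% were lower and 9.87% were higher. *YWHAG* (14-3-3 gamma) went from 227 ± 5.57 to 145 ± 1.01 CPM (-0.64 ± 0.03) and *YWHAH* (14-3-3 eta) had -0.28 ± 0.03, whereas *YWHAQ* (14-3-3 theta) rose from 241 ± 7.75 to 306 ± 12 CPM (0.35 ± 0.04) and *SFN* (14-3-3 sigma) had 0.28 ± 0.05, also called higher. *YWHAB* (14-3-3 beta) had 0.00 ± 0.03 and did not pass. *FBXW11*, a subunit of the ubiquitin ligase that marks CDC25A and WEE1 for destruction, was lower at -0.40 ± 0.05. Of the other ligase subunits in the list, *BTRC* (0.05 ± 0.09) and *SKP1* (0.07 ± 0.04) did not pass and *CUL1* (-0.20 ± 0.04) was lower. These were named here after their values were seen.

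Of 9 genes of mitotic entry, 2 were lower, against 10.6% of all genes tested, with a median of -0.08. Of the 9, 0 were higher (0 also with DESeq2 and at an unadjusted p under 0.05). *MASTL*, the Greatwall kinase, was lower at -0.29 ± 0.06, and *ARPP19*, its substrate, at -0.38 ± 0.04. *ENSA*, the other substrate, had 0.03 ± 0.03 and did not pass. Of 6 genes of the p53 branch, which CHEK2 and CHEK1 can activate, 0 were lower and 0 were higher by edgeR or DESeq2. At an unadjusted p under 0.05, 2 were lower and 0 higher. A list of 6 genes is too short to tell 0 lower genes from the share over all genes tested. *CDKN1A*, which encodes the CDK inhibitor p21, had 144 ± 3.98 CPM in control and 152 ± 6.71 CPM in IGF2BP3 KD cells and did not pass (0.08 ± 0.04).

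**Figure D5:**
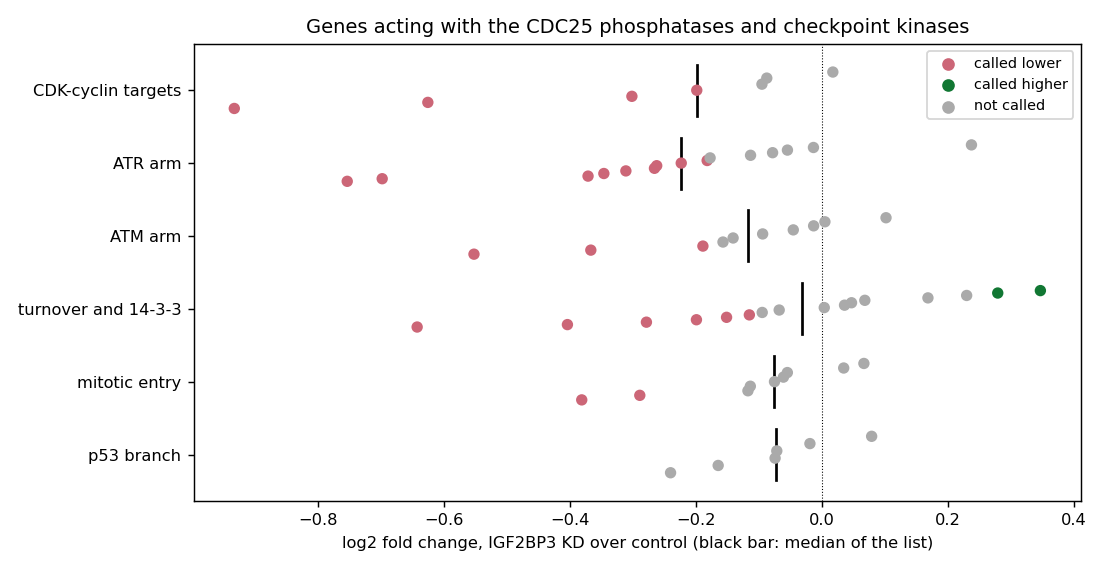
Log2 fold change (horizontal axis) of each tested gene in the 6 lists, red where called lower, green where called higher and grey where not called, with the median of each list as a black bar. In the ATR arm 9 of 15 genes are red, and in the p53 branch 0 of 6 are. Over all genes tested, 10.6% were called lower. The lists were chosen with earlier results of these data known.

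For each called gene, the genes of most similar profile were sought among the 9847 genes whose mean reached 10 CPM, as the smallest root mean square difference over the 6 libraries of log2 CPM relative to the control mean. *E2F3*, a transcription factor of the E2F family, was closest to *CDC25A* (0.038), followed by *GXYLT1* (0.044). *MTMR12* (0.033) and *SIK1* (0.045) were closest to *WEE1*, *LARS2* (0.027) and *EIF4EBP1* (0.039) to *CHEK1*, *POLR3K* (0.037) and *EAF1* (0.037) to *CHEK2*, and *UNC13B* (0.011) and *NCAPD2* (0.019) to *CDC25B*. All 10 were called lower, as the measure selects for, and their similarity describes these 6 libraries.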

How the data were processed

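RNA-seq of OE-19 cells gave 3 control and 3 IGF2BP3 KD libraries, prepared from poly(A) RNA with a directional kit. The authors aligned paired reads of 150 bases to hg38 with hisat2 and counted them per gene with featureCounts, and fastp is named in the submitters' processing notes. The deposited values are these raw counts, without normalization. Versions, annotation release and strand setting are not given in the sources used here. Of 60612 table entries, 132 repeats of 44 identifiers were left out.

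Counts were tested with edgeR 4.0.16 (R 4.3.3): TMM scaling, filterByExpr (minimum count 10, minimum total 15), glmQLFit and glmQLFTest, and Benjamini-Hochberg adjustment over 19778 genes, threshold 0.05. Standard errors are the log2 fold change divided by the root of F. The fit was tested on simulated data. Libraries of a group differed by more than sampling noise (chi-square per degree of freedom of 9.86 to 17.6, over genes averaging 50 counts or more), so none was a repeat deposit of another. This does not show that they come from separate cultures. Each of the 7 genes had 1057 counts or more in every library.

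Lengths, positions, overlaps and 3′ UTRs came from GENCODE v44, with a length for 99.97% of tested genes, and promoters from RefSeq. Alternatives were DESeq2 1.42.0, RLE scaling, other filters and thresholds, a replicate block, each library left out, and other lengths. The 7 genes, the lists and the naming rule (per list, up to 3 lower and 2 higher genes of smallest p and the uncalled gene of highest mean CPM; per called gene, 2 similar profiles) were chosen with earlier results of these data known. Further tools were Python 3.11.15, scipy 1.17.1 and matplotlib 3.10.9.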

Additional observations from a re-analysis of the deposited data

How the results depend on the processing

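The calls of *WEE1*, *CHEK2*, *CDC25A*, *CHEK1* and *CDC25B* held in every alternative run, including an adjusted p under 0.01, and *CDC25C* was not called in any. *PKMYT1* was called lower with at least 10 counts in every library (-0.21, adjusted p = 0.039 from edgeR), with DESeq2 (-0.21) and without control replicate 1 (-0.28). The first tests fewer genes and also gave *PKMYT1* a smaller standard error (0.069, against 0.073 in the main fit). The cause was not tested for any of these calls. With each library left out, *PKMYT1* lay between -0.28 and -0.16, and 5 to 6 of the 7 genes were lower. Over all genes, 1314 were lower and 1098 higher at an adjusted p under 0.01, against 2088 and 1953 at 0.05.

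Same-numbered libraries of the groups showed little shared deviation (correlations of deviations from the group means over genes between -0.032 and 0.0092). A correlation over all genes cannot exclude a pairing, so whether the numbers pair the libraries stayed unsettled. With the replicate block 2026 genes were lower and 1875 higher, 5 of the 7 genes were lower, *CDC25A* included, and no call among the 7 changed. On the log2 scale the ratio of phosphatases to inhibitory kinases was 0.27 with the block, with an SD of 0.17 over the 3 differences, 0.30 with canonical transcript lengths (chosen after seeing the data) and 0.35 as a ratio of counts. The block cannot change the mean difference of a ratio, and lengths cancel from this difference in the 3 ratios of single genes. These alternatives could therefore not turn the direction. With each library left out the direction of each of the 4 ratios was the same, but *CHEK1* to *CHEK2* ranged from 0.06 to 0.19. Reads shared with overlapping genes and the counting error at this depth were not separated from the spread between libraries.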
